A study of Capra hircus with 11 samples.

Results

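Induced goat (Capra hircus) mammary epithelial cells, called CiMECs, were set against naturally derived goat mammary epithelial cells (GMECs), the cell type that the induction aimed at. Each group was deposited as 1 pooled table of droplet single-cell counts, so the comparison takes 3 of the 11 labelled samples, 1 in CiMECs and 2 in GMECs. UMI counts, which are counts of distinct captured RNA molecules, were added up over the barcodes of each table and expressed as CPM, the count of a gene scaled to a common table total. The comparison covered 6056 of the 14867 genes listed in either table, those that reached 10 CPM in CiMECs or in GMECs, which together held 98.2% of the UMIs of CiMECs and 97.7% of those of GMECs.

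CiMECs started as ear fibroblasts, which were kept in an induction medium named BFRTV for 8 days on plates coated with Matrigel. The induced cells, with their primary colonies, were then passaged in a medium for goat mammary epithelial cells. The label of CiMECs says only that they were taken later than day 8, and the number of passages is not given in the sources used here. GMECs carry no induction time, and their donor animals and passage number are not given either. No allele, transgene or further treatment is named for either group. The 3 other groups of the series are the ear fibroblasts at day 0 and the cells after 4 and 8 days in the induction medium (BFRTV0d, BFRTV4d and BFRTV8d), with 3, 3 and 2 samples, and they were used only to place single genes.

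The mammary epithelium has an inner luminal layer, whose cells secrete milk, and an outer basal layer of contractile myoepithelial cells that rest on the basement membrane. Luminal cells are known for the simple keratins KRT8, KRT18 and KRT19, for tight junctions and apical mucins, and for control by factors such as GATA3 and ELF5. Basal cells are known for KRT5, KRT14, hemidesmosomes and smooth muscle proteins. Milk fat and cholesterol are made by lipid synthesis enzymes under the SREBP transcription factors.

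CiMECs held 5188 barcodes and 97203521 UMIs, with a median of 17232 UMIs per barcode, and GMECs held 5641 barcodes and 111001606 UMIs, with a median of 19424. The median number of detected genes was 2674 in CiMECs and 3240 in GMECs. A total of 37 barcodes occurred in both tables. Ribosomal protein genes took 25.6% of the UMIs of CiMECs and 35% of those of GMECs. Both tables were rich in the 11 epithelial markers, all of which passed 10 CPM in both, with a summed level of 14069 CPM in CiMECs and 18683 CPM in GMECs. Of the 8 fibroblast markers none reached 10 CPM in either table, and their summed level was 10.2 CPM in CiMECs and 1.23 CPM in GMECs, while the sum in the BFRTV0d fibroblasts was 10519 CPM outside ribosomal protein genes. The summed endothelial, immune, adipocyte, and melanocyte and Schwann cell markers were each at 3.47 CPM or less in both tables. Of the 5 markers of myoepithelial and smooth muscle cells, only ACTA2 passed 10 CPM, at 23.2 CPM in CiMECs and 10.0 CPM in GMECs. The summed epithelial markers were thus high in both tables, although single markers ranged down to 14.1 CPM for KRT14 in GMECs. Their sum in the BFRTV0d fibroblasts was 1726 CPM outside ribosomal protein genes. The luminal factor ELF5 was scarce, with 0.648 CPM in CiMECs and 0.171 CPM in GMECs.

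The 2 tables had no replicate, so no test was made and no p-value is given, and each difference compares these 2 tables rather than the 2 kinds of cells. The range in parentheses after a fold is the exact 95% counting interval of the ratio of the 2 CPM values and covers counting error only, not differences between cultures or libraries. Genes at least 4-fold apart were counted as differing, and gene lists were described by the number of members at least 2-fold apart and by the median log2 fold.

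Most genes compared were less than 2-fold apart between the 2 tables. Levels in CiMECs and GMECs were within 2-fold for 4538 of the 6056 genes (74.9%). Without replicates, the share expected between cultures of the same kind is unknown. At least 4-fold higher in CiMECs were 161 genes (2.66% of those compared), and 184 (3.04%) were at least 4-fold lower. At the lesser limit of 2-fold, 486 genes (8.03%) were higher and 1032 (17.0%) were lower. Each list count below is to be read beside these 2 shares. The median log2 fold over all genes compared was −0.27, with quartiles of −0.78 and 0.32.

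That median moved with the scaling. It was 0.01 with edgeR TMM factors, 0.07 with DESeq2 median-of-ratios factors and −0.51 when CPM was taken over UMIs outside ribosomal protein genes. The split of genes at least 4-fold higher against lower was 197 against 141 with TMM factors, 212 against 131 with median-of-ratios factors and 161 against 311 outside ribosomal protein genes. List medians are therefore given both as measured and relative to the median of all genes compared, and a list is called higher or lower by the relative value.

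Log2 folds tended to be higher for abundant genes than for scarce genes. Ribosomal protein genes were left out of the abundance classes below but counted in the total that scaled CPM. Another scaling shifts every fold by the same amount, so the sign of the medians below depends on it. Outside the ribosomal protein genes, the median log2 fold was −0.51 for 2542 genes with a mean under 20 CPM, −0.27 for 1730 genes from 20 to 50 CPM and −0.02 for 756 genes from 50 to 100 CPM. It was 0.19 for 869 genes from 100 to 1000 CPM and 0.38 for the 85 genes above that. Of these 85 genes, 22 were at least 2-fold higher in CiMECs and 1 was lower. The abundance classes were chosen after the values had been seen. The genes at least 4-fold higher took 4.55% of the UMIs of CiMECs and 0.578% of those of GMECs, and the genes at least 4-fold lower took 0.137% of the UMIs of CiMECs and 1.11% of those of GMECs.

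Across the 4526 genes with at least 10 CPM in both tables, Pearson's r of log2 CPM was 0.92 and Spearman's rho was 0.85. These correlations run across genes, which are not independent replicates, and both tables share the method and the ribosomal protein genes. Without the ribosomal protein genes r was 0.90 over 4452 genes. The limit of 10 CPM lay in a dense range of values. LPP, just inside it, had 7.78 CPM in CiMECs and 10.0 CPM in GMECs, and KAT14, just outside, had 9.99 CPM in CiMECs and 7.92 CPM in GMECs.

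**Figure D1:**
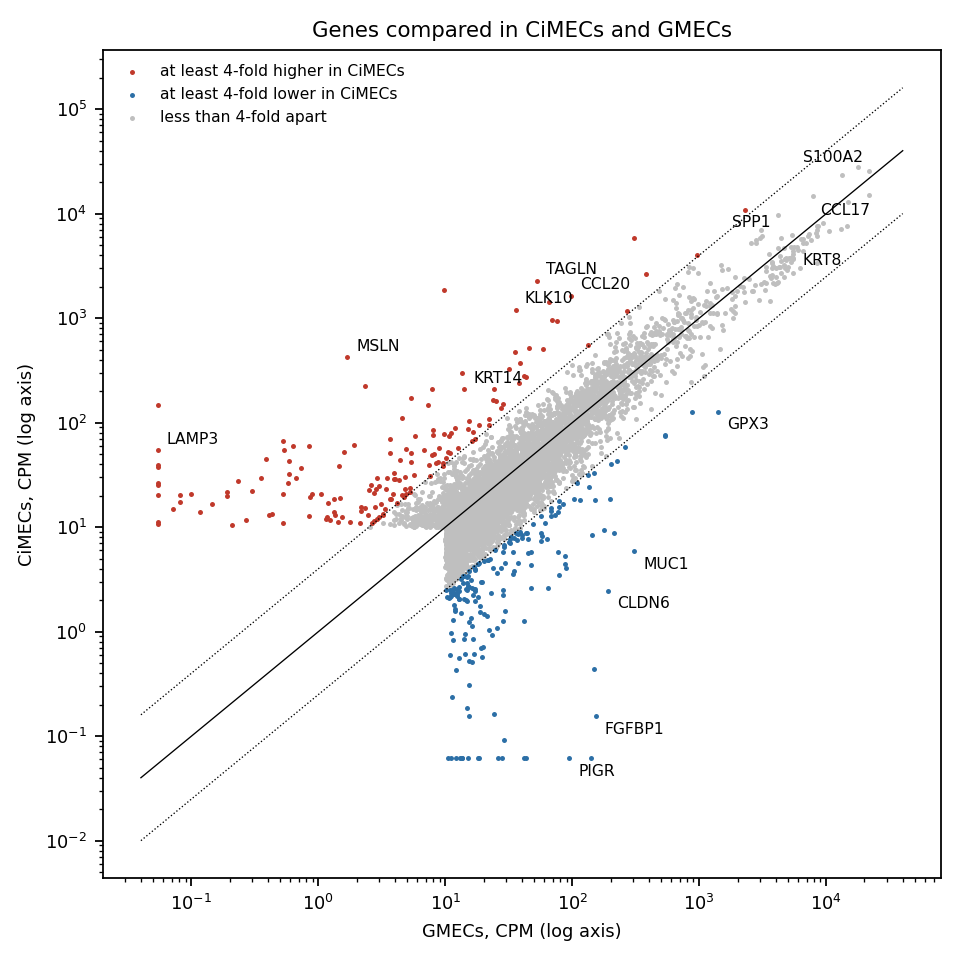
CPM in CiMECs (vertical log axis) against CPM in GMECs (horizontal log axis) for the 6056 genes compared, 1 point per gene, with equality as a solid line and 4-fold limits as dotted lines. Genes not listed in a table are drawn at the level of 6 counts. Most points follow the solid line, 161 genes lie above the upper dotted line and 184 below the lower one.

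Both populations were led by the same abundant transcripts. S100A2, a calcium-binding protein of squamous and basal epithelium, had 25638 CPM in CiMECs and 21860.5 CPM in GMECs. FTH1, the heavy chain of the iron store ferritin, had 27844 CPM in CiMECs and 17774 CPM in GMECs. WFDC2, a secreted protease inhibitor of glandular epithelium, had 12881 CPM in CiMECs and 14910.3 CPM in GMECs. These transcripts differed by less than 2-fold between the tables. CCL17, a chemokine that attracts T cells, had 15124 CPM in CiMECs and 21899 CPM in GMECs, so that it stood among the 10 most abundant genes of both tables. The actin monomer binders TMSB10 and TMSB4X had 23313 and 14692 CPM in CiMECs, against 13422 and 7841 CPM in GMECs. CST6, an inhibitor of cysteine proteases, had 9723 CPM in CiMECs and 4145 CPM in GMECs, which was 2.35-fold higher (2.34 to 2.35) in CiMECs. Of the 20 most abundant genes outside the ribosomal protein family, 13 were shared by the 2 tables, and of the 100 most abundant 70 were shared.

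The simple keratins were high in both tables, while the basal keratin KRT14 was mostly found in CiMECs. KRT8 had 4771 CPM in CiMECs and 5569.6 CPM in GMECs, KRT18 had 3565 CPM in CiMECs against 4794 in GMECs and KRT7 had 1620.5 CPM in CiMECs against 1897 in GMECs. KRT19 had 2719 CPM in CiMECs and 5478 CPM in GMECs, which was 2.01-fold lower (2.01 to 2.02) in CiMECs. The adhesion protein EPCAM had 292 CPM in CiMECs and 210.3 CPM in GMECs, and the adherens junction cadherin CDH1 had 64.7 CPM in CiMECs and 82.7 CPM in GMECs. Neither differed by as much as 2-fold. The desmosomal DSP had 41.2 CPM in CiMECs against 62.9 in GMECs, the tight junction scaffold TJP1 had 20.6 CPM in CiMECs against 26.6 in GMECs, and the laminin receptor subunit ITGA6 had 27.8 CPM in CiMECs against 62.7 in GMECs. Only ITGA6 among these was more than 2-fold apart, 2.26-fold lower (2.16 to 2.36) in CiMECs. Over the 11 markers 1 was at least 2-fold higher and 2 were lower, near the 8.03% and 17.0% of all genes. Their median log2 fold was −0.36 (−0.09 relative to all genes).

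Genes of the basal layer were split. KRT14, the keratin of basal cells, had 208 CPM in CiMECs and 14.1 CPM in GMECs and was 14.7-fold higher (14 to 15.5). The log2 fold of KRT14 was 3.88 over all barcodes and 4.65 without the 5% of barcodes with most UMIs. Its partner KRT5 had 739.9 CPM in CiMECs against 485 in GMECs. COL17A1, a transmembrane collagen of hemidesmosomes, had 37.1 CPM in CiMECs and 0.730 CPM in GMECs and was 50.9-fold higher (40.8 to 64.2). KRT6A, a keratin of activated and hyperproliferative epidermis, had 85.2 CPM in CiMECs and 8.05 CPM in GMECs, and SFN, the epithelial 14-3-3 protein, had 512 CPM in CiMECs and 59 CPM in GMECs. All 4 genes of the list that were at least 2-fold higher were thus keratins, COL17A1 or SFN. The integrin ITGB4, the laminin chains LAMA3 and LAMB3 and the linker PLEC were lower or less than 2-fold apart. ITGB4 had 37.1 CPM in CiMECs against 50.4 in GMECs, LAMA3 56.4 CPM in CiMECs against 66.6 in GMECs and LAMB3 185 CPM in CiMECs against 212 in GMECs, and PLEC had 27.3 CPM in CiMECs against 108 in GMECs, 3.96-fold lower (3.80 to 4.13) in CiMECs. Over 15 basal genes, 4 were at least 2-fold higher and 2 lower, with a median log2 fold of 0.41 (0.67 relative to all genes), against 8.03% and 17.0% over all genes, and the relative median was 0.08 with at least 50 CPM required.

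Genes of the contractile list were mostly higher in CiMECs. Actin-associated genes outside the list went both ways, with PDLIM1 higher and AIF1L lower in CiMECs. TAGLN, the actin-binding protein transgelin, had 2283 CPM in CiMECs and 53.1 CPM in GMECs and was 43-fold higher (41.9 to 44.1). TPM1, a tropomyosin, had 706 CPM in CiMECs and 189 CPM in GMECs, and MYL9, a myosin light chain, had 596 CPM in CiMECs and 221 CPM in GMECs. CALD1, or caldesmon, had 493 CPM in CiMECs against 245 in GMECs, and CNN2, a calponin, had 29.1 CPM in CiMECs against 12.5 in GMECs. ACTA2, the smooth muscle actin, was the lowest of those at least 2-fold apart, with 23.2 CPM in CiMECs against 10.0 in GMECs. In all, 6 of 10 list members reached 2-fold in that direction and none in the other. The median log2 fold was 1.11 (1.38 relative to all genes). In cells thinned to 3000 UMIs, TAGLN was found in 89.5% (88.5 to 90.4) of 4351 CiMECs and in 9.15% (8.35 to 10.0) of 4752 GMECs.

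Luminal regulators and apical genes were lower in CiMECs. GATA3, a transcription factor that maintains luminal cells, had 7.65 CPM in CiMECs and 44.9 CPM in GMECs and was 5.86-fold lower (5.43 to 6.34). ELF3, an epithelial ETS factor, had 1.75 CPM in CiMECs and 18.6 CPM in GMECs, and XBP1, a factor of secretory cells, had 15.2 CPM in CiMECs and 67.7 CPM in GMECs. EHF and OVOL2 had 38.1 and 8.30 CPM in CiMECs, against 81.2 and 19.3 CPM in GMECs. Of the regulators that passed 10 CPM, those that were not 2-fold lower both belong to the AP-2 family. TFAP2A had 13.8 CPM in CiMECs against 17.6 in GMECs, and TFAP2B had 13.8 CPM in CiMECs and 0.117 CPM in GMECs, 118-fold higher (68.9 to 222). Of the 7 regulators compared 5 were at least 2-fold lower and 1 was higher, against 17.0% and 8.03% of all genes. Their median log2 fold was −1.22 (−0.95 relative to all genes). A further 7 regulators were found under 10 CPM in both tables.

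MUC1, the transmembrane mucin of the apical surface, had 5.93 CPM in CiMECs and 308 CPM in GMECs and was 51.9-fold lower (47.8 to 56.5). PIGR, the receptor that carries immunoglobulin A into milk, had 94.4 CPM in GMECs and was not listed in CiMECs. With CiMECs set to 6 counts it was 1529.8-fold lower (703 to 4170). This value depended on the scaling, since the log2 fold was −10.58 from summed counts and −8.78 from the mean of CPM per barcode. PROM1, a protein of apical protrusions, had 5.10 CPM in CiMECs against 12.1 in GMECs. These apical genes were all lower in CiMECs. The luminal markers CD24 and CD9 had 26.2 and 762 CPM in CiMECs, against 36.3 and 579.9 CPM in GMECs, and ALDH1A3, a retinoic acid enzyme of luminal progenitors, had 195 CPM in CiMECs against 171 in GMECs. Of the 11 luminal surface genes compared 6 were at least 2-fold lower and none was higher, with a median log2 fold of −1.24 (−0.98 relative to all genes). Lists share members, so their counts are not separate results. CLDN3 and CLDN7 were counted here, among the claudins and among the junction genes, and PIGR was also counted among the milk genes. The other mucin compared, MUC20, had 7.22 CPM in CiMECs and 31.4 CPM in GMECs. The 2 epithelial sodium channel subunits compared, SCNN1A and SCNN1B, had 2.60 and 0.432 CPM in CiMECs, against 47.6 and 12 CPM in GMECs, and they were the 2 of 9 calcium and ion handling genes at least 2-fold apart. That list had a median log2 fold of −0.69 (−0.43 relative to all genes).

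The claudins, the strand proteins of tight junctions, differed widely between the 2 tables. CLDN6 had 2.47 CPM in CiMECs and 191 CPM in GMECs, CLDN3 had 9.31 CPM in CiMECs against 179 in GMECs, and CLDN7 had 24.4 CPM in CiMECs against 136 in GMECs. CLDN8 had 0.946 CPM in CiMECs against 14.2 in GMECs. These 4 were 77.5, 19.2, 5.59 and 15 times lower in CiMECs. CLDN4 and CLDN1 were less than 2-fold apart, with 91.4 and 54.9 CPM in CiMECs, against 157 and 62.5 CPM in GMECs. CLDN10 ran the other way, with 50.3 CPM in CiMECs and 8.09 CPM in GMECs. The median log2 fold of the 7 claudins compared was −2.48 (−2.22 relative to all genes), and it was −0.46 (−0.19 relative to all genes) over all claudins listed when no CPM was required. Over all 30 junction and adhesion genes compared, 8 were at least 2-fold lower and 1 was higher, against 17.0% and 8.03% of all genes. The 1 that was higher was the desmosomal cadherin DSC3, with 39.9 CPM in CiMECs against 11.8 in GMECs. The median log2 fold of the list was −0.65 (−0.39 relative to all genes). The occludin OCLN had 11.2 CPM in CiMECs against 19.7 in GMECs, and the splicing factors of epithelial transcripts ESRP1 and ESRP2 had 17.3 and 4.88 CPM in CiMECs, against 41.4 and 11.6 CPM in GMECs.

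**Figure D2:**
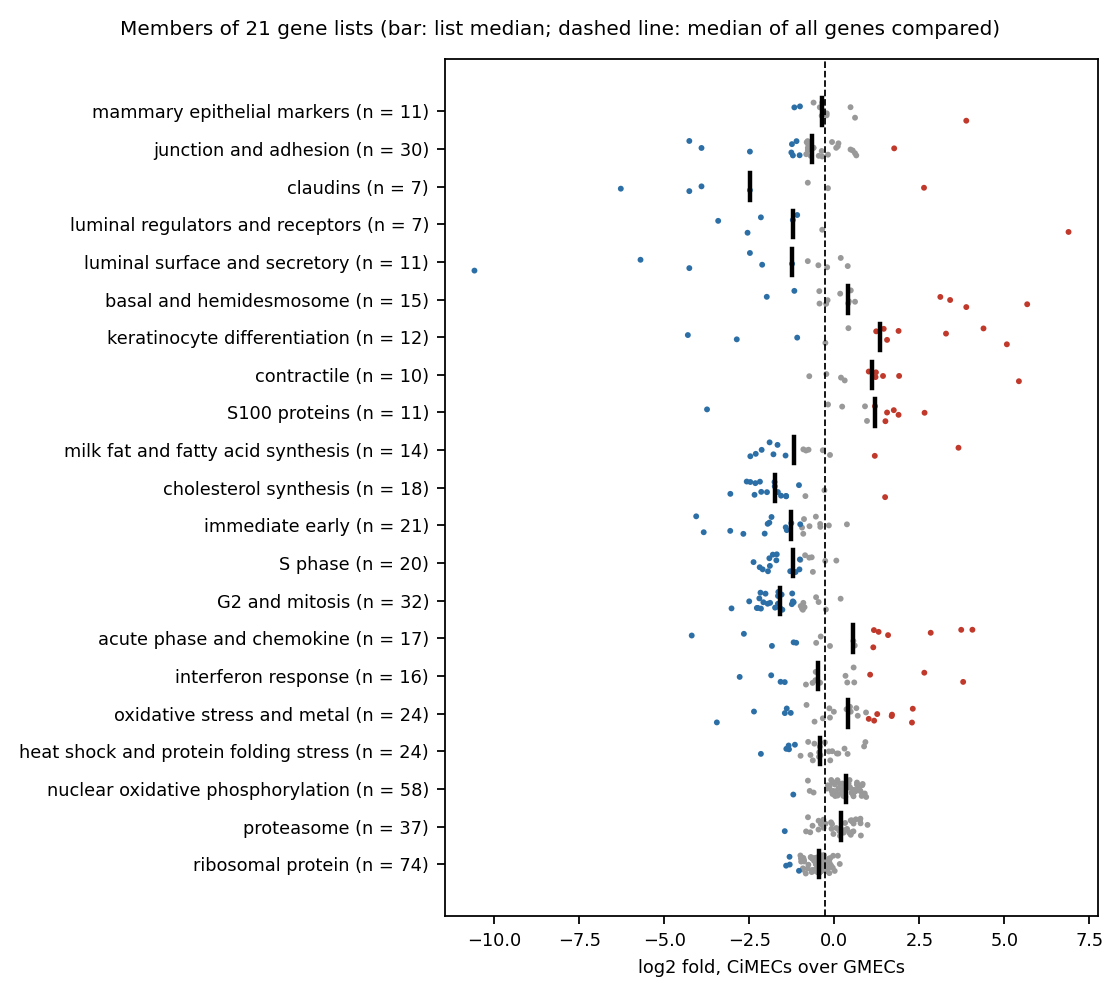
Log2 fold of CiMECs over GMECs (horizontal axis) for each compared member of 21 gene lists (rows), with n the number of members compared. Red and blue points are at least 2-fold higher and lower, black bars are list medians and the dashed line is the median of all 6056 genes, −0.27. The cholesterol, mitosis, luminal and claudin bars lie left of the line, and the contractile, keratinocyte and S100 bars lie right of it.

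Of the milk genes found by name, SPP1 was the most abundant in both tables. SPP1, or osteopontin, a secreted phosphoprotein of milk, had 5832 CPM in CiMECs and 4420.4 CPM in GMECs. MFGE8, the milk fat globule protein, had 13.2 CPM in CiMECs and 14.1 CPM in GMECs, and PLIN2, which coats milk lipid droplets, had 8.24 CPM in CiMECs and 7.82 CPM in GMECs. These 3 were less than 1.5-fold apart. Lactoferrin, LTF, had 0.207 CPM in GMECs and was not listed in CiMECs, and LPO, or lactoperoxidase, had 0.412 CPM in CiMECs and 1.16 CPM in GMECs. PTHLH, the parathyroid hormone-like protein, had 8.92 CPM in CiMECs and 1.21 CPM in GMECs. XDH, a protein of the milk fat globule membrane, had 0.504 CPM in CiMECs and 1.68 CPM in GMECs. CEL had 6 counts in GMECs and was not listed in CiMECs, which gives no fold. Of 22 genes of milk protein and secretion, 9 were found by name in the tables and 3 passed 10 CPM, SPP1, MFGE8 and PIGR, of which PIGR was the one at least 2-fold apart. Their median log2 fold was −0.09 (0.17 relative to all genes), and −5.09 with at least 50 CPM required. The caseins and LALBA were not analysed here.

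Lipid synthesis genes were mostly lower in CiMECs. Of the 18 cholesterol synthesis genes that passed 10 CPM, 15 were at least 2-fold lower, against 17.0% of all genes, and 1 was higher, and the median log2 fold was −1.75 (−1.49 relative to all genes). HMGCS1, a synthase of the early pathway, had 18 CPM in CiMECs and 150.0 CPM in GMECs and was 8.32-fold lower (7.92 to 8.75). SREBF2, which drives the pathway, had 12.8 CPM in CiMECs against 56.9 in GMECs. Enzymes of further steps were lower too. MVD, FDFT1 and SQLE had 24.9, 21.6 and 6.38 CPM in CiMECs, against 66.5, 64.1 and 25.2 CPM in GMECs. TM7SF2, a sterol reductase, was the exception, with 108 CPM in CiMECs and 38.5 CPM in GMECs. In thinned cells the list summed to a mean of 1.07 UMIs per cell in CiMECs and 2.87 in GMECs.

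For milk fat and fatty acid synthesis the median and the sum ran in opposite directions. Among 14 such genes 7 were at least 2-fold lower and 2 higher, and the median log2 fold was −1.17 (−0.91 relative to all genes). FASN, the fatty acid synthase, had 8.79 CPM in CiMECs against 43.6 in GMECs, CIDEA, a lipid droplet protein, had 7.90 CPM in CiMECs against 34.7 in GMECs, and the synthetase ACSL3 had 6.89 CPM in CiMECs against 25.8 in GMECs. FABP5, a fatty acid carrier of epidermis, had 945 CPM in CiMECs and 75.3 CPM in GMECs and was 12.5-fold higher (12.3 to 12.8). The summed level of the list was 1247 CPM in CiMECs and 559.7 CPM in GMECs, and FABP5 made up most of the sum in CiMECs. With at least 50 CPM required, 4 members remained and their median turned to 0.53.

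Genes of keratinocyte differentiation and the S100 family were mostly higher in CiMECs. KLK10, a secreted serine protease of the kallikrein family, had 1207 CPM in CiMECs and 35.9 CPM in GMECs and was 33.6-fold higher (32.6 to 34.7), and KLK12 had 149.6 CPM in CiMECs against 28.3 in GMECs. S100A8 and S100A9, which form calprotectin, had 893 and 442 CPM in CiMECs, against 241 and 151 CPM in GMECs. IVL, the cornified envelope protein involucrin, had 45.2 CPM in CiMECs against 16.5 in GMECs, and SBSN and LY6D had 10.9 and 13.1 CPM in CiMECs, against 0.523 and 1.35 CPM in GMECs. The list was not uniform, since CRNN, or cornulin, had 4.43 CPM in CiMECs and 87.7 CPM in GMECs and TGM2, a transglutaminase, had 73.7 CPM in CiMECs and 538 CPM in GMECs. Over the 12 list members that passed 10 CPM, 7 were at least 2-fold higher and 3 lower, with a median log2 fold of 1.34 (1.61 relative to all genes), the relative median being 0.38 with at least 50 CPM required.

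Among 11 S100 genes, 6 were at least 2-fold higher and 1 was lower, and the median log2 fold was 1.19 (1.46 relative to all genes). S100A13 had 272 CPM in CiMECs and 43.3 CPM in GMECs, S100A4 had 2747 CPM in CiMECs against 818 in GMECs, and S100A14 had 1531 CPM in CiMECs against 541 in GMECs. S100A3, which is known from hair cuticle, was the one that was lower, with 5.75 CPM in CiMECs and 77 CPM in GMECs. In thinned cells the family summed to a mean of 134 UMIs per cell in CiMECs and 87 in GMECs.

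Several of the highest folds came from genes at high level in CiMECs and near absent in GMECs. MSLN, or mesothelin, a cell surface protein known from mesothelium, had 422 CPM in CiMECs and 1.68 CPM in GMECs and was 251-fold higher (217 to 291). FXYD3, a regulator of the sodium pump, had 227 CPM in CiMECs and 2.34 CPM in GMECs. LAMP3, a lysosomal membrane protein, had 54.5 CPM in CiMECs and was not listed in GMECs. With GMECs set to 6 counts it was 1007-fold higher (463 to 2746). Its log2 fold was 9.98 from summed counts and 7.86 from the mean of CPM per barcode. The other mesothelial genes compared were the keratins KRT8 and KRT19, and the other pneumocyte and airway genes were under 10 CPM in both tables. The growth factor MDK, or midkine, had 149 CPM in CiMECs against 7.36 in GMECs. LOXL1, which crosslinks elastin, had 60.7 CPM in CiMECs against 1.90 in GMECs, MMP23B, a metalloprotease, had 55.1 CPM in CiMECs against 0.532 in GMECs, and TFPI2, a protease inhibitor, had 172 CPM in CiMECs against 5.37 in GMECs. PDLIM1, an actin-associated protein, had 111 CPM in CiMECs against 4.53 in GMECs, KCNK7, a potassium channel family member, had 59.6 CPM in CiMECs against 0.631 in GMECs, and MLLT11 had 66 CPM in CiMECs against 0.523 in GMECs.

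Among the lowest folds, FGFBP1, a carrier protein of fibroblast growth factors, had 0.154 CPM in CiMECs and 153 CPM in GMECs and was 992-fold lower (602 to 1774). GPX3, a secreted glutathione peroxidase, was the most abundant gene that was at least 4-fold lower, with 128 CPM in CiMECs and 1399 CPM in GMECs, 11-fold lower (10.8 to 11.2). FLNC, a filamin, had 5.25 CPM in CiMECs against 86.8 in GMECs, AIF1L, an actin-binding protein, had 8.46 CPM in CiMECs against 143 in GMECs, and MAN1A1, a mannosidase of glycan processing, had 3.49 CPM in CiMECs against 78.4 in GMECs. CCDC151, a protein of ciliary dynein assembly, STK11IP and SP140 had 4.09, 2.60 and 7.36 CPM in CiMECs, against 89.7, 63.9 and 56.6 CPM in GMECs.

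A stricter view took genes with at least 20 CPM in 1 table and under 1 CPM in the other, a rule chosen after the values had been seen. It found 25 genes of CiMECs, 19 of them with a symbol, and 11 of GMECs, 7 of them with a symbol. CiMECs had the connexin GJB5 at 25.1 CPM, the epidermal secreted protein DMKN at 26.4 CPM, CHCHD6 at 39.1 CPM and COL8A1, a short-chain collagen, at 42.5 CPM. The first 3 were not listed in GMECs and COL8A1 had 0.586 CPM there. GMECs had the fatty acid transporter SLC27A5 at 42.8 CPM, the serine protease HPN at 28 CPM and BIN2 at 26.1 CPM, and none of these was listed in CiMECs. Among the genes at least 4-fold apart, 41 of the 161 higher and 27 of the 184 lower had no gene name. Of all 6056 genes compared, 534 had none. LOC102177275 had 1850.3 CPM in CiMECs and 9.73 CPM in GMECs, LOC100860781 had 5825 CPM in CiMECs against 307 in GMECs and LOC102184534, among the 10 most abundant genes of CiMECs, had 10866 CPM in CiMECs against 2288 in GMECs. LOC102185401 had 141 CPM in GMECs and was not listed in CiMECs.

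Shares of cells with a UMI were compared after each cell was thinned to 3000 UMIs, with 837 CiMECs and 889 GMECs left out as shallower. MSLN was found in 59.1% (57.6 to 60.6) of the thinned CiMECs and in 0.505% (0.324 to 0.751) of the thinned GMECs. KLK10, FABP5 and SFN were found in 88.6%, 80.7% and 64.6% of CiMECs, against 5.41%, 16.1% and 15.7% of GMECs. These genes were spread over most CiMECs. KRT14 was found in 23.8% of CiMECs and 1.60% of GMECs, and the 10% of CiMECs with most KRT14 held 75.8% of its thinned UMIs, while for TAGLN and KLK10 they held 33.1% and 28%. KRT14 was therefore found in fewer CiMECs than TAGLN or KLK10, and its mean level was also lower than theirs. On the other side, GPX3 was found in 23.7% of CiMECs and 97% of GMECs, MUC1 in 1.56% of CiMECs and 54.8% of GMECs, and CLDN6 in 0.712% of CiMECs and 40.2% of GMECs. PIGR, not listed in CiMECs, gave no share there and was found in 23% (21.8 to 24.2) of GMECs. Neither table held a class of cells that should lack these genes, so free RNA was not measured. Shares before thinning went the same way and rest on medians of 17232 UMIs in CiMECs and 19424 UMIs in GMECs, with MSLN in 81.3% of CiMECs and 3.03% of GMECs and MUC1 in 9.81% of CiMECs and 86.2% of GMECs.

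**Figure D3:**
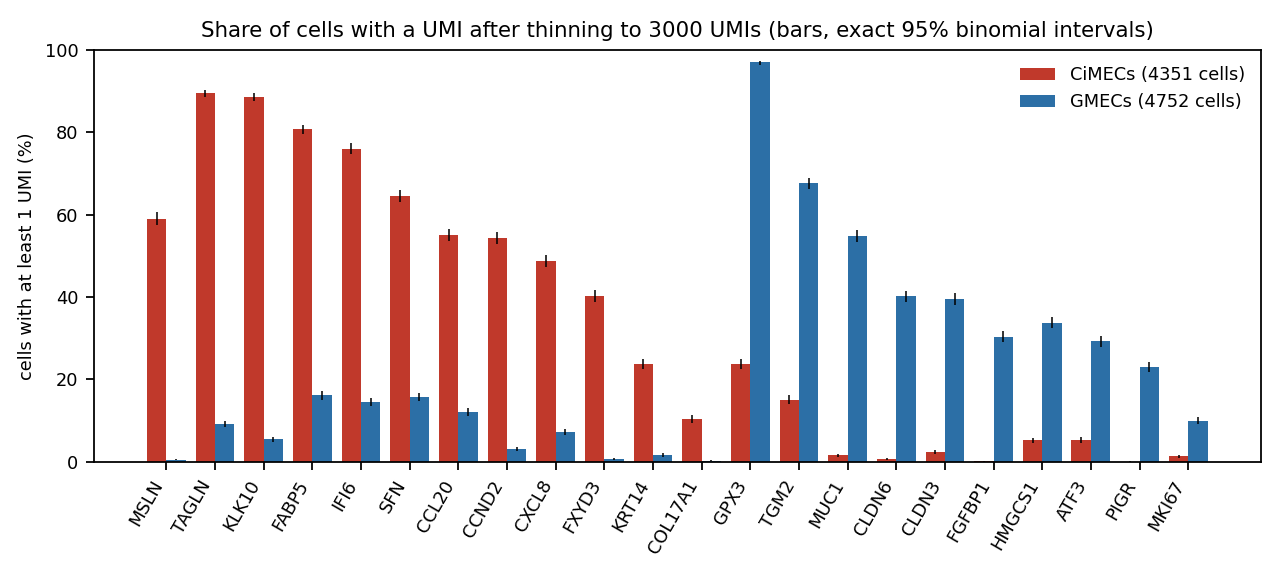
Percentage of cells with at least 1 UMI of each of 22 genes (vertical axis) after thinning to 3000 UMIs, with exact 95% binomial intervals, for 4351 CiMECs (red) and 4752 GMECs (blue). From MSLN to COL17A1 the CiMECs bars are the taller ones, and from GPX3 to MKI67 the GMECs bars are.

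Proliferation genes were lower in CiMECs. Of 32 genes of G2 and mitosis compared, 23 were at least 2-fold lower and none was higher, against 17.0% and 8.03% of all genes. Their median log2 fold was −1.59 (−1.32 relative to all genes). Of 20 genes of S phase 13 were lower and none higher, with a median of −1.22 (−0.95 relative to all genes). MKI67, the marker of cycling cells, had 4.56 CPM in CiMECs and 37 CPM in GMECs and was 8.13-fold lower (7.37 to 8.98). TOP2A, the mitotic topoisomerase, had 8.87 CPM in CiMECs against 43 in GMECs, CDC20 had 10.7 CPM in CiMECs against 49.2 in GMECs and the mitotic kinase PLK1 had 4.73 CPM in CiMECs against 20.1 in GMECs, while PCNA, the replication clamp, had 53.7 CPM in CiMECs against 51.5 in GMECs and was nearly equal. In thinned cells the mitosis list summed to a mean of 1.74 UMIs per cell in CiMECs and 3.97 in GMECs, and cells with at least 10 such UMIs made up 3.59% (3.05 to 4.18) of CiMECs and 13.9% (12.9 to 14.9) of GMECs. No phase was called.

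Cell cycle brakes and cyclins did not move as a group. CDKN1C, an inhibitor of cyclin-dependent kinases, had 26.2 CPM in CiMECs and 0.577 CPM in GMECs, and CDKN1A, a target of p53, had 482 CPM in CiMECs against 256 in GMECs. CCND2, or cyclin D2, had 297 CPM in CiMECs and 13.4 CPM in GMECs and was 22.1-fold higher (21 to 23.3), while CCND1 had 593 CPM in CiMECs against 616 in GMECs. GDF15, a stress-induced cytokine, had 14.3 CPM in CiMECs against 2.15 in GMECs, and the nuclear lamina gene LMNB1 had 3.84 CPM in CiMECs against 15.4 in GMECs. Among 15 genes of arrest and senescence 3 were at least 2-fold higher and 2 lower, with a median log2 fold of −0.06 (0.21 relative to all genes).

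The immediate early genes, which respond to stimuli within minutes, were lower in CiMECs. Of 21 genes compared 12 were at least 2-fold lower and none was higher, against 17.0% and 8.03% of all genes. Their median log2 fold was −1.27 (−1.0 relative to all genes). ATF3 had 18.1 CPM in CiMECs and 116 CPM in GMECs, FOS had 31.3 CPM in CiMECs against 118 in GMECs and the nuclear receptor NR4A1 had 0.844 CPM in CiMECs against 14.1 in GMECs. JUN and DUSP1 were less than 2-fold apart, with 33 and 83.9 CPM in CiMECs, against 44 and 122 CPM in GMECs. The 24 genes of heat shock and protein folding stress had a median of −0.44 (−0.17 relative to all genes), with 5 at least 2-fold lower and none higher, against 17.0% and 8.03% of all genes. HSPA5 and HSPD1, chaperones of the endoplasmic reticulum and of mitochondria, had 42.3 and 49.6 CPM in CiMECs, against 107 and 132 CPM in GMECs.

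**Figure D4:**
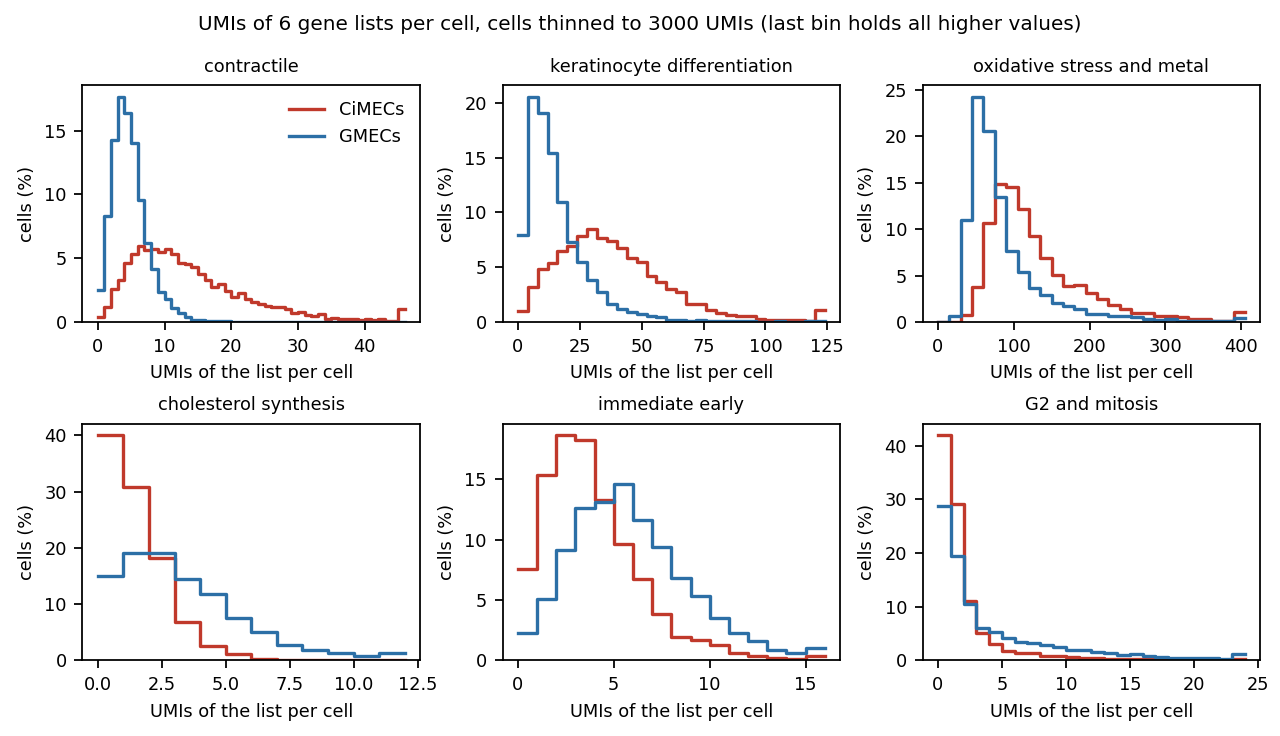
Percentage of cells (vertical axes) by the number of UMIs that a gene list held in each cell (horizontal axes) after thinning to 3000 UMIs, for CiMECs (red) and GMECs (blue). The contractile, keratinocyte and oxidative stress curves of CiMECs lie further right, and the cholesterol, immediate early and mitosis curves of GMECs do.

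Genes of oxidative stress and metal handling were split. GPX2, an epithelial glutathione peroxidase, had 108 CPM in CiMECs and 21.9 CPM in GMECs, and SOD1, the cytosolic superoxide dismutase, had 42.4 CPM in CiMECs against 8.71 in GMECs. PRDX2 and PRDX6 had 1479 and 566 CPM in CiMECs, against 618 and 251 CPM in GMECs, and the thioredoxin TXN had 5781 CPM in CiMECs against 3031 in GMECs. The transferrin receptor TFRC had 7.80 CPM in CiMECs against 40.1 in GMECs, catalase, CAT, had 11.9 CPM in CiMECs against 31.3 in GMECs and the reductase TXNRD1 had 14.4 CPM in CiMECs against 39.5 in GMECs, lower in CiMECs as GPX3 was. Among 24 genes of this list that passed 10 CPM, 7 were at least 2-fold higher and 5 lower, and the median log2 fold was 0.41 (0.67 relative to all genes).

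Nearly all nuclear genes of oxidative phosphorylation were less than 2-fold apart, with log2 folds from −1.21 to 0.94. Their 58 members had a median log2 fold of 0.33 (0.60 relative to all genes), with none at least 2-fold higher and 1 lower, ATP5SL with 7.71 CPM in CiMECs against 17.8 in GMECs. The 37 proteasome genes compared had a median of 0.19 (0.45 relative to all genes), which was −0.02 before that correction when CPM was taken outside ribosomal protein genes, and the 1 gene at least 2-fold lower was PSMB8, a subunit of the immunoproteasome, with 67.8 CPM in CiMECs against 186 in GMECs. The 74 ribosomal protein genes had a median of −0.44 (−0.18 relative to all genes), none was at least 2-fold higher and 4 were lower, RPL39, RPLP2, RPS29 and RPS28. Glycolysis and hypoxia genes had a median of −0.14 (0.12 relative to all genes), with 1 of 16 at least 2-fold higher, the carbonic anhydrase CA12 with 18.8 CPM in CiMECs against 3.73 in GMECs, and none lower. GAPDH and PKM had 807 and 279 CPM in CiMECs, against 1266 and 432 CPM in GMECs.

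Chemokines divided gene by gene. CCL20, which attracts cells with the receptor CCR6, had 1630.0 CPM in CiMECs and 97.8 CPM in GMECs and was 16.7-fold higher (16.3 to 17). CXCL8, which attracts neutrophils, had 469 CPM in CiMECs and 35.4 CPM in GMECs, and the growth factor CSF2 had 15.5 CPM in CiMECs against 2.18 in GMECs. CXCL14 and the complement gene C3 had 2.04 and 0.597 CPM in CiMECs, against 12.9 and 10.9 CPM in GMECs. Among 17 acute phase and chemokine genes 7 were at least 2-fold higher and 5 lower, with a median log2 fold of 0.56 (0.82 relative to all genes), while the sum of the list was 17773 CPM in CiMECs and 22576 CPM in GMECs, most of it from CCL17. The 7 chemokine ligands alone had a median of 1.14 (1.41 relative to all genes), and 4 of them stood at least 2-fold higher and 1 lower.

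Interferon-responsive genes did not move together. IFI6 had 961 CPM in CiMECs and 69.6 CPM in GMECs and was 13.8-fold higher (13.5 to 14.1), and BST2, or tetherin, had 29.9 CPM in CiMECs against 4.77 in GMECs. IRF1, a transcription factor of the response, had 2.47 CPM in CiMECs against 17 in GMECs, and PARP14 had 3.73 CPM in CiMECs against 13.5 in GMECs. MX1 and IRF7 were less than 2-fold apart, with 15.2 and 22.5 CPM in CiMECs, against 22.4 and 32.9 CPM in GMECs. Of 16 genes 3 were at least 2-fold higher and 4 lower, against 8.03% and 17.0% of all genes. Their median log2 fold was −0.48 (−0.22 relative to all genes). The sum of the list was 1983 CPM in CiMECs and 1719 CPM in GMECs, with IFI6 as the main part in CiMECs.

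Signalling genes differed in single members. In the IGF axis, the receptor IGF1R had 13.3 CPM in CiMECs and 0.432 CPM in GMECs, and the binding proteins IGFBP7 and IGFBP6 had 73.8 and 562 CPM in CiMECs, against 5.77 and 198 CPM in GMECs. IGFBP5, which is known for its rise in the involuting gland of rodents, went the other way with 0.525 CPM in CiMECs against 15.3 in GMECs. The 5 genes compared had a median log2 fold of 1.51 (1.77 relative to all genes), and 3 stood at least 2-fold higher and 1 lower. In the EGF family the ligand AREG, which takes part in duct growth, had 348 CPM in CiMECs against 128 in GMECs, and ERRFI1, a feedback inhibitor of the receptor, had 33.2 CPM in CiMECs against 149 in GMECs. EGFR and ERBB2 were less than 2-fold apart, with 10.3 and 8.00 CPM in CiMECs, against 9.16 and 15.8 CPM in GMECs. The 10 genes had a median of −0.64 (−0.38 relative to all genes), and −0.01 relative to all genes with no CPM minimum.

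The TGF-beta response list had a median log2 fold of −0.22 (0.04 relative to all genes). Of its 17 genes 2 were at least 2-fold higher and 5 lower, against 8.03% and 17.0% of all genes. INHBA had 11 CPM in CiMECs against 37.8 in GMECs and LTBP2 had 0.967 CPM in CiMECs against 11.2 in GMECs. IGFBP7 and IGFBP5 of the IGF axis were also counted here, IGFBP7 as 12.8-fold higher and IGFBP5 as 29.2-fold lower. The WNT, BMP and Notch list had a median of 0.14 (0.41 relative to all genes) over 7 genes, which turned to −0.89 (−0.92 relative to all genes) with at least 50 CPM required, with DKK3 at 41 CPM in CiMECs against 14.1 in GMECs and the Notch target HES1 at 48.5 CPM in CiMECs against 183 in GMECs. Retinoid genes were divided, with a median of −0.07 (0.20 relative to all genes) and 3 of 8 in each direction, and the relative median turned to −0.29 with no CPM minimum. CRABP2, the retinoic acid carrier, had 1799 CPM in CiMECs and 485 CPM in GMECs, RARRES2 had 21.9 CPM in CiMECs against 0.297 in GMECs, and the enzyme ALDH1A1 had 0.514 CPM in CiMECs against 16.2 in GMECs.

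VIM and FN1, mesenchymal genes that epithelial cells in culture also express, were less than 2-fold apart. VIM, or vimentin, had 650.3 CPM in CiMECs and 804 CPM in GMECs, and FN1, or fibronectin, had 839 CPM in CiMECs and 1216 CPM in GMECs. S100A4 had 2747 CPM in CiMECs against 818 in GMECs and THY1, a surface protein of fibroblasts, had 0.617 CPM in CiMECs against 16.9 in GMECs. These 4 were the only ones of 24 fibroblast and mesenchymal genes found that passed 10 CPM, and their median log2 fold was −0.42 (−0.16 relative to all genes), which turned to 1.73 relative to all genes with no CPM minimum. TIMP1, the metalloprotease inhibitor, had 4044 CPM in CiMECs and 952 CPM in GMECs and was 4.25-fold higher (4.22 to 4.28), whereas TIMP2 and TIMP3 had 129 and 293 CPM in CiMECs, against 141 and 405 CPM in GMECs. Of 5 genes tied to pluripotency and reprogramming, 3 were at least 2-fold lower and none was higher, against 17.0% and 8.03% of all genes. Their median was −1.26 (−1.0 relative to all genes). KLF4, KLF5 and SOX9 had 4.46, 8.34 and 49.2 CPM in CiMECs, against 17.4, 29.3 and 118 CPM in GMECs, and all 3 are also known from ordinary epithelium.

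The genes that set CiMECs apart from GMECs were next looked up in the fibroblasts and the cells in induction. The BFRTV tables list none of the ribosomal protein genes and were filtered differently, so the table set and the group cannot be told apart and no fold is drawn. CPM here is taken over UMIs outside ribosomal protein genes. Of the 161 genes at least 4-fold higher in CiMECs than in GMECs, 59.0%, 74.5% and 77.0% had at least 10 CPM at days 0, 4 and 8, against 90.5%, 92.7% and 92.4% of the 5982 compared genes outside the ribosomal protein family. Of the 184 genes at least 4-fold lower the shares were 54.3%, 51.6% and 47.3%. A gene at least 4-fold apart could enter the comparison through its higher table alone. With CPM over all UMIs, 4452 of the 5982 genes reached 10 CPM in both tables. A mean under 20 CPM on that scale was found for 83 of the 161, 119 of the 184 and 2542 of the 5982. The lower shares of both lists can follow from this selection, so no conclusion is drawn from them. The count of genes at 10 CPM was chosen after the values had been seen.

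TAGLN had 1318, 779 and 162 CPM at days 0, 4 and 8, against 3070.2 in CiMECs and 81.7 in GMECs on this scale. COL17A1 had 56.6, 263 and 288 CPM at these days, with 49.9 in CiMECs and 1.12 in GMECs. KRT14 had 642, 1515 and 4659 CPM, with 279 in CiMECs and 21.7 in GMECs. For KRT14 and COL17A1 the CiMECs value was below those of days 0, 4 and 8 and above that of GMECs. For TAGLN it was the highest of the 5 tables. Such orders cannot be told apart from the difference between the table sets. MSLN had 8.58, 2.23 and 2.47 CPM at days 0, 4 and 8 and 568 in CiMECs, against 2.59 in GMECs, so that CiMECs had the highest level of the 5 tables. GATA3 had 4.67, 51.1 and 221 CPM at these days, with 10.3 in CiMECs and 69 in GMECs. MUC1 had 1.75, 2.54 and 6.77 CPM, with 7.97 in CiMECs and 473 in GMECs, so that GMECs had the highest level of the 5 tables. KRT18 had 89.3, 100.5 and 110.3 CPM at these days, with 4793 in CiMECs and 7373 in GMECs, less than 2-fold apart.

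**Figure D5:**
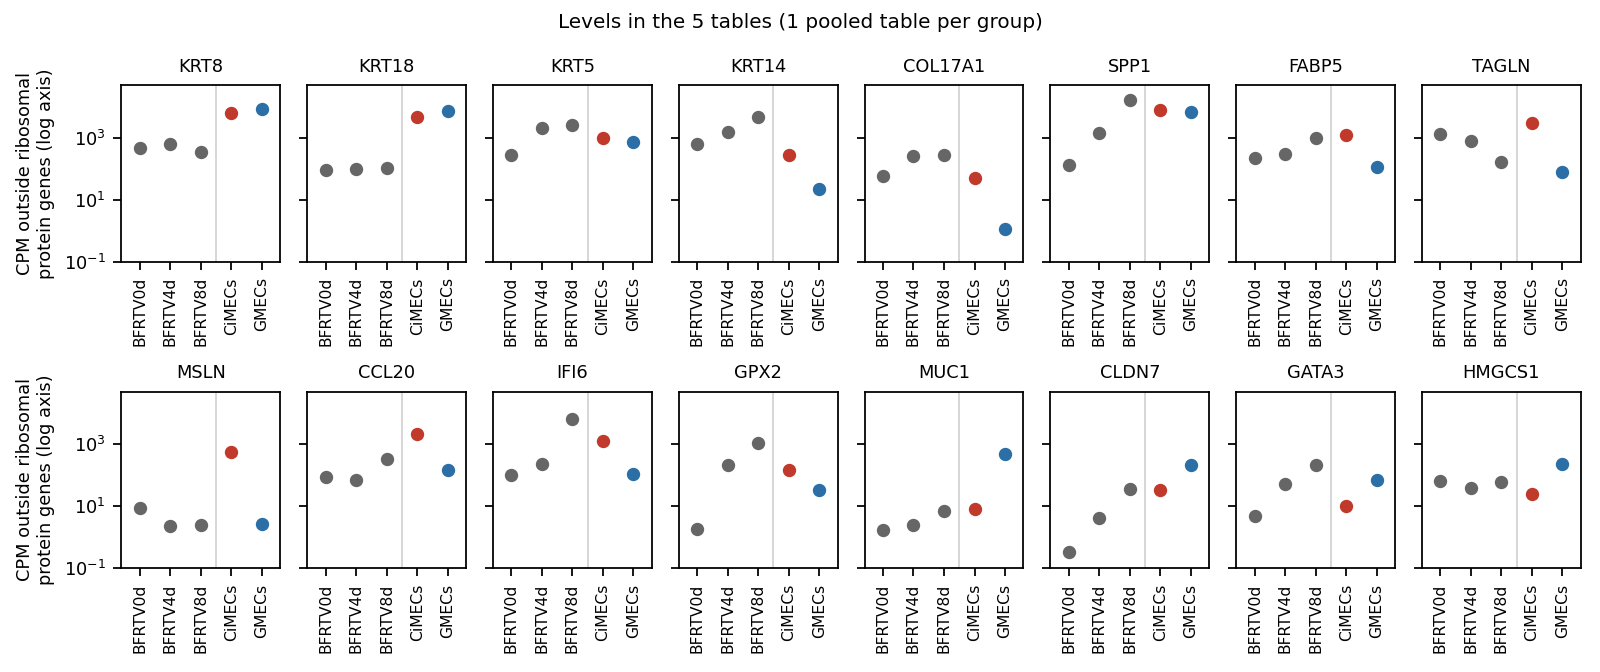
CPM outside ribosomal protein genes (vertical log axis) of 16 genes in the 5 tables, with BFRTV0d, BFRTV4d and BFRTV8d in grey, CiMECs in red and GMECs in blue, 1 point per pooled table. KRT8 and KRT18 are less than 2-fold apart between CiMECs and GMECs and lower in the grey tables, MSLN is highest in CiMECs and MUC1 in GMECs. The grey line parts the 2 sets of tables, which were filtered differently.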

How the data were processed

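Single goat cells were captured in droplets and their transcripts sequenced from the 3′ end (10x Genomics). The authors deposited 1 table of UMI counts per group, as whole numbers per gene and barcode that were not normalized. FastQC 0.10.1 and Cell Ranger appear in the submitters' processing notes. No coordinates are printed, since the genome build is not given in the sources used here. Of 14866 symbols, 14515 were found in the RefSeq table of ARS1.2. The barcodes carry no sample name, and the titles of the 2 GMECs samples differ only in lane, so each group was 1 table with no replicate.

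Counts were summed per table and scaled to CPM, and folds were given an exact 95% conditional binomial interval (scipy 1.17.1). A gene not listed in a table was set to 6 counts, the fewest cells of any listed gene. Genes listed in exactly 6 cells had a median sum of 6 counts, up to 36 in CiMECs and 9 in GMECs. Cells were thinned to 3000 UMIs without replacement, and shares were given exact (Clopper-Pearson) 95% binomial intervals. The fold calculation was tested on simulated data. No mitochondrial gene was listed. No doublet caller was run, and leaving out the 5% of barcodes with most UMIs was tried instead. The other alternatives were edgeR 4.0.16 TMM factors, DESeq2 1.42.0 size factors, CPM outside ribosomal protein genes, no CPM minimum, a minimum of 50 CPM, barcodes with at least 3000 UMIs, the mean of CPM per barcode, genes listed in both tables, and a fold of 2.

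Genes named in the text were the 15 highest and 15 lowest folds among symbol-bearing genes that reached 50 CPM, up to 4 members of each of 52 lists with the largest folds, the 10 most abundant genes of each table, and the epithelial and milk protein markers. Further list members, genes without a symbol, and genes near absent from 1 table were named, and list sums per cell added, after the values had been seen. Some list members that are counted are not reported here by name. The members and lists were chosen with earlier results of these data known. How reads of near-identical gene copies were assigned is unknown.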

Additional observations from a re-analysis of the deposited data

How the results depend on the processing

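The 161 genes at least 4-fold higher in CiMECs and the 184 lower became 669 and 734 with no CPM minimum, 67 and 44 with a minimum of 50 CPM, and 486 and 1032 with a fold of 2. With CPM taken outside ribosomal protein genes the lower genes numbered 311. The other alternatives gave 152 to 212 higher and 131 to 197 lower, within 1.5 times the counts above. Of 97 named genes at least 4-fold apart, 86 were so in every alternative, and none changed sign. A gene dropped by a filter was not counted as lost. Many of these genes were named for their large folds, so this share does not hold for all genes called. Of the 184 lower genes, 141 stayed so with TMM factors and 131 with median-of-ratios factors, and all 161 higher genes did. Outside ribosomal protein genes all 184 lower and 137 of the higher genes stayed so. Among 47 lists with a compared member, 18 had a median as measured that crossed 0 in some alternative. That of milk fat and fatty acid synthesis turned from −1.17 to 0.53 with a minimum of 50 CPM. The relative median, by which lists are called, also crossed 0 for some lists. The mucins were among these, although their median as measured kept its sign. No paired analysis was possible because each group was 1 table. No replicate could be left out for the same reason. Without replicates the spread between cultures, animals or libraries is unknown, and donor, passage and library cannot be told apart from the group.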

Other observations

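Families outside the pathways above showed further single-gene differences, given here as values. Of 66 solute carriers compared, 22 were at least 2-fold lower in CiMECs and 5 higher, against 17.0% and 8.03% of all genes. Their median log2 fold was −0.59 (−0.32 relative to all genes). The phosphate transporter SLC20A1 had 18.7 CPM in CiMECs and 102 CPM in GMECs, the zinc transporter SLC39A8 had 7.47 CPM in CiMECs against 36.6 in GMECs, and SLC22A18 had 19.3 CPM in CiMECs against 0.865 in GMECs. The 6 serpins compared had a median of −0.83 (−0.56 relative to all genes), with SERPINB5, or maspin, an epithelial serpin first known from mammary cells, at 11 CPM in CiMECs against 2.13 in GMECs and SERPINE2 at 10.9 CPM in CiMECs against 60.5 in GMECs. The 8 annexins had a median of −0.14 (0.13 relative to all genes), with ANXA1 at 1926 CPM in CiMECs against 639 in GMECs and ANXA6 at 0.237 CPM in CiMECs against 11.2 in GMECs. The 6 integrins, 4 laminins and 9 keratins compared had medians of −0.15, −0.22 and −0.22, which were 0.11, 0.05 and 0.04 relative to all genes.

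The 5 collagens compared had a median log2 fold of 0.54 (0.81 relative to all genes), which turned to −0.32 (0.20 relative to all genes) with CPM outside ribosomal protein genes. COL4A1 and COL4A2, the main chains of basement membrane collagen, had 15.6 and 10.2 CPM in CiMECs, against 26.9 and 25.4 CPM in GMECs. The metalloproteases and their inhibitors had a median of 0.98 (1.24 relative to all genes) over 4 genes, which turned to −0.32 (0.19 relative to all genes) with CPM outside ribosomal protein genes. The 3 cadherins had a median of −0.36 (−0.09 relative to all genes), which turned to 1.81 relative to all genes with no CPM minimum, and the 3 mesothelial genes −0.22 (0.04 relative to all genes). Kallikreins (2 compared) had a median of 3.74 (4.0 relative to all genes) and mucins (2 compared) −3.91 (−3.64 relative to all genes), where the mucin median was 0.00 relative to all genes when no CPM was required. The chondrocyte, pericyte, erythroid and neuronal list had 2 genes compared, SOX9 and NOTCH3, and a median of −0.47 (−0.20 relative to all genes). None of 6 HOX genes found passed 10 CPM, nor did any gene of the endothelial, immune, adipocyte, or melanocyte and Schwann cell lists.

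In several lists the summed level and the median as measured differed in direction. The fibroblast and mesenchymal list summed to 4268 CPM in CiMECs and 2872 CPM in GMECs, with S100A4 as its largest part in CiMECs. The retinoid list summed to 2471 CPM in CiMECs and 1351 CPM in GMECs, with CRABP2 as most of the sum in CiMECs, and the EGF list to 844 CPM in CiMECs and 758 CPM in GMECs. The WNT, BMP and Notch list ran the other way, with 229.8 CPM in CiMECs and 344 CPM in GMECs, as did the chemokine ligands, with 17314 CPM in CiMECs and 22096 CPM in GMECs.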
